A study of Rattus norvegicus with 9 samples.

Results

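Before a cell copies its DNA, it licenses the sites where copying will start. The origin recognition complex marks these sites, and Cdc6 works with Cdt1 to load the ring of Mcm proteins around the DNA. The loaded ring becomes the core of the replicative helicase, which unwinds the double strand once S phase begins. Pcna is the sliding clamp that then encircles the new duplex, holds the DNA polymerases on it and recruits repair and chromatin factors. Heart muscle cells divide before birth, and in rats most of them leave the cell cycle soon after it.

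Of the replication machinery, 6 genes are described here: the helicase subunits Mcm3, Mcm4, Mcm6 and Mcm7, the loader Cdc6 and the clamp Pcna. They were chosen by name, and all 6 were found among 24657 loci of at least 200 nt and were in the 14126 loci tested. Apart from Cdc6, the members reached a rescaled FPKM of at least 1 in all 9 libraries. Cdc6 reached it in the 3 fetal libraries and in no adult one, so it entered the test only through the group in which it was high.

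The study sequenced RNA from the hearts of Sprague-Dawley rats in 9 libraries, 3 in each group. Fetal libraries were made from ventricle of embryonic day 18, each titled as a separate litter. TAC libraries were made from the left ventricle of adults after transverse aortic constriction, an operation that narrows the aorta and makes the left ventricle pump against a higher pressure. Sham libraries were made from the left ventricle of adults that had the operation with no constriction. No allele or drug is named for any group, and the sources used here give neither the adults' age nor the time since surgery. Fetal RNA was extracted with Trizol and adult RNA with the Qiagen Rneasy Fibrous Tissue Kit, so age, region and extraction cannot be told apart. The adult labels do not say that each library is a separate animal, so the p-values measure the spread between these libraries, which may be technical. The comparisons ask how the fetal programme differs from the adult heart and whether overload brings parts of it back.

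Levels are FPKM (fragments scaled by transcript length and library size, the unit of the deposited files), rescaled so that the 9 libraries can be compared. Being per length, they can also be set side by side between genes. The median deposited gene value above 0 ran from 2.73e+06 to 4.60e+07 between libraries. A rescaled FPKM is therefore a relative unit, set so that the mean library total is a fixed number. The relative factors divided out were 3.80 to 7.40 in fetal libraries and 0.173 to 1.01 in adult ones, so the rescaling itself separates fetal from adult. A difference is on the log2(rescaled FPKM + 1) scale, on which the fold change of a gene near 0 comes out too small. A gene was called where limma, fitted to all 9 libraries, gave a Benjamini-Hochberg adjusted p below 0.05 over the 14126 loci.

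Depth, estimated from the deposited confidence bounds, was 17550000 to 25750000 fragments in the fetal libraries, 6370000 to 11650000 in the TAC libraries and 11890000 to 21580000 in the sham libraries. The main axis of variation (56.9% of the variance) separated fetal from adult libraries. On the next axis (16.9%) the first replicate of every group stood apart from the other two. Replicate 1 also has a shorter shortest assembled feature (43 nt, against 63 nt in the others). The main fit has no term for this split, so its differences, intervals and p-values do not account for it. Fits of replicates 2 and 3 alone, and with the replicate number as a block, are given as alternatives. Of 16 cardiomyocyte markers 3 could be looked up by symbol, and Actc1, Mb and Des were present in all 9 libraries. Fetal replicate 2 stood apart in Actc1, at a level of 137200, against 14220 and 19150 in the other fetal libraries.

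The promoters of 4 members are printed because the members moved together, and binding sites of E2F, the factor family that switches on S phase genes, have been described in such promoters. RefSeq (GRCr8) has an entry for these 4, each with 250 bases before and 50 after the start site, 5' to 3' on the gene's strand. All 4 are on the minus strand: Mcm3 at chr9:30733697-30733996, Mcm6 at chr13:42404303-42404602, Mcm7 at chr12:22163129-22163428 and Pcna at chr3:139955771-139956070. Mcm4 and Cdc6 are not shown. Capitals mark the E2F words TTTCCCGC, TTTCGCGC, TTTGCCGC and TTTGGCGC, searched on both strands, so that a match on the other strand reads as its reverse complement.
Mcm3: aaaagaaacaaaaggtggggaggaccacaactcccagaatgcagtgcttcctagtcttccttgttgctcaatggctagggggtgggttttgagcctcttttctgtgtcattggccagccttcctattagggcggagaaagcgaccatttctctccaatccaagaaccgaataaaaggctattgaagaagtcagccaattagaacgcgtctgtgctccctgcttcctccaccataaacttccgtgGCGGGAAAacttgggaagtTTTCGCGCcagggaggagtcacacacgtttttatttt
Mcm6: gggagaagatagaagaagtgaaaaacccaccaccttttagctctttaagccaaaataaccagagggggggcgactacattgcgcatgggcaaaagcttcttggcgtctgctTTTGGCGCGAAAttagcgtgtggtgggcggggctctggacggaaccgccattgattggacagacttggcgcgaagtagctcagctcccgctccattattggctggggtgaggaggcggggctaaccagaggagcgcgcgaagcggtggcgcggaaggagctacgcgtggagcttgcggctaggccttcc
Mcm7: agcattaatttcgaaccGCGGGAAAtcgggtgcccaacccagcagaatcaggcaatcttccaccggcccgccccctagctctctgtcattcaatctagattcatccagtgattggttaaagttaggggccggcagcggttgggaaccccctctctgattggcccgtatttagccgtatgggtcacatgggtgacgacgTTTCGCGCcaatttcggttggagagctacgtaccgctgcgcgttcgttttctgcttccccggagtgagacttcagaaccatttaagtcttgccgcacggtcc
Pcna: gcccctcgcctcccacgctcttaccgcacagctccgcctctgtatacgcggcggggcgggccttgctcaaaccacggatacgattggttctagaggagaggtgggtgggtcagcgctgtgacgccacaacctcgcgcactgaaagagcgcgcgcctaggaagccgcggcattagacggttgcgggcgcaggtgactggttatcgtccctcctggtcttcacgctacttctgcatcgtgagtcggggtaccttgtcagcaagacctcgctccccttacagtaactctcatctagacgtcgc

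An E2F word was present in the windows of Mcm3, Mcm6 and Mcm7, 3 of the 4 printed, and in 716 of 33469 promoters of all genes (2.14%). Mcm3 held TTTCCCGC on the other strand, across the start site, and TTTCGCGC on its own strand shortly after it. Mcm6 held TTTGGCGC on its own strand and TTTCGCGC on the other, and these share 4 bases, so they are a single stretch. Mcm7 held a far match, TTTCCCGC on the other strand, and one nearer the start site, TTTCGCGC on its own strand, whose last base is also the first base of a CCAAT. In the Pcna window these letters do not occur. CCAAT, searched on both strands, was in 4 of 4 windows and in 37.5% of all promoters, and GGGCGG in 4 of 4 and in 33.1%. A match is only a match of letters.

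All 6 members were higher in fetal ventricle than in sham left ventricle, by 4.87-fold to 57.4-fold as ratios of group means. The largest differences were those of Mcm6 and Cdc6, whose order depends on the pseudocount, and the shallowest those of Mcm7 and Pcna. The 6 of 6 called higher stand beside 22.4% of all loci called higher and 23.1% called lower. In each member every fetal library lay above every sham library, which held for 29.2% of all loci. The median difference of the members was 3.40, against 0.04 over all loci. With replicates 2 and 3 alone, where Cdc6 was below the filter, the other 5 members differed by 2.09 to 4.02 and all were called. In a whole piece of ventricle, more cells that copy DNA and more RNA per such cell cannot be told apart.

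**Figure D1:**
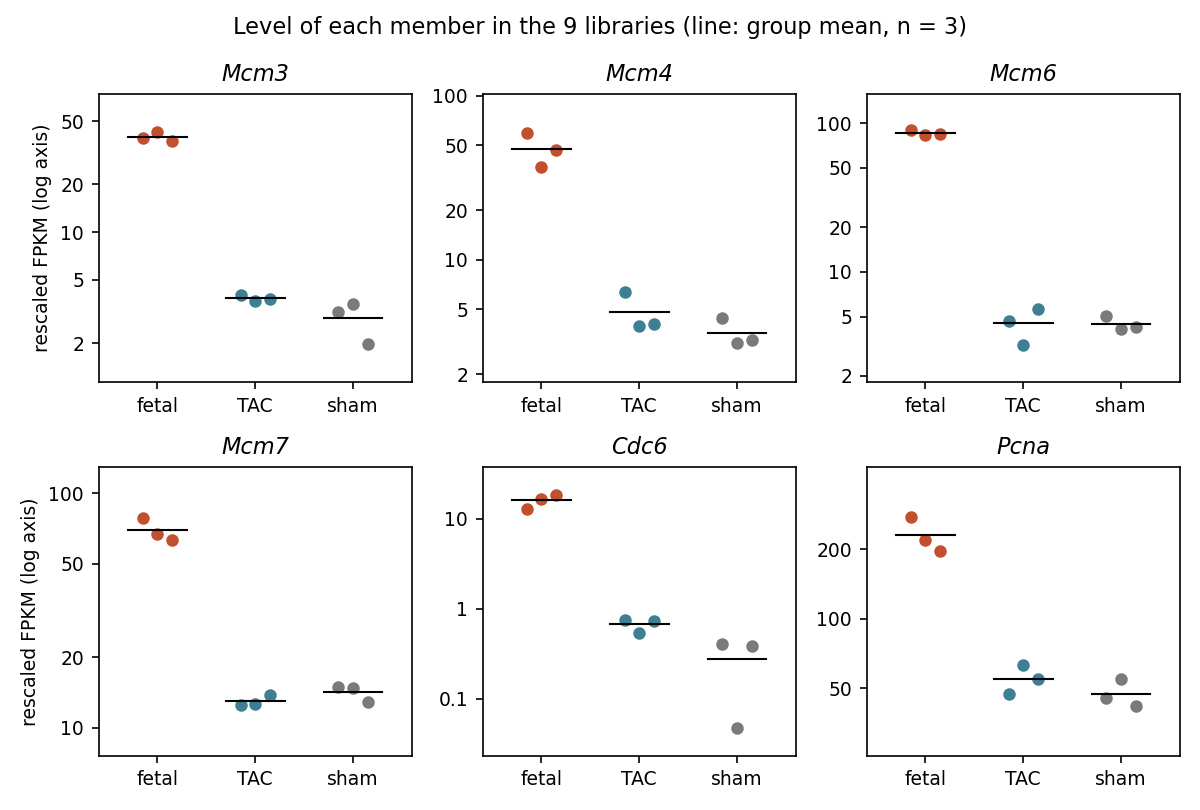
Rescaled FPKM of each member on a log axis, 1 point a library (replicates 1 to 3 from left to right within a group) and a line at the group mean (n = 3). The fetal points lie far above both adult groups in each panel, and the TAC and sham points overlap except for Mcm3 and Cdc6.

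Mcm6, a subunit of the helicase ring, had the smallest relative spread of the members among fetal libraries and, with a pseudocount of 1, the largest difference. It had 89.5, 83.1 and 84.5 rescaled FPKM in fetal ventricle (replicates 1 to 3), 4.67, 3.21 and 5.66 in TAC and 5.04, 4.16 and 4.26 in sham (rn4 chromosome 13, 41045678 to 41070868). The fetal libraries were close to each other (coefficient of variation 3.95%) and far above the adult ones, and the adult groups overlapped. The group means were 85.7 ± 3.38 in fetal ventricle, 4.51 ± 1.23 in TAC and 4.48 ± 0.480 in sham (SD, n = 3 each). The fetal minus sham difference was 3.99 (SE 0.19, limma adjusted p = 3.41e-06), a 19.1-fold ratio of means. By this difference Mcm6 ranked 96 of 14126 loci.

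Mcm3 and Mcm4, also subunits of the ring, differed by similar amounts and lay close to each other in level. Mcm3 had 39.0, 42.6 and 37.6 rescaled FPKM in fetal ventricle, 4.04, 3.69 and 3.78 in TAC and 3.15, 3.52 and 1.98 in sham (rn4 chromosome 9, 19537321 to 19554877). All 3 TAC libraries were above all 3 sham libraries, by a margin smaller than the spread within sham. The fetal minus sham difference of Mcm3 was 3.41 (SE 0.19, limma adjusted p = 6.12e-06, 13.8-fold). Mcm4 had 59.5, 36.6 and 47.0 in fetal ventricle, 6.33, 3.95 and 4.02 in TAC and 4.41, 3.11 and 3.24 in sham (rn4 chromosome 11, 87169929 to 87183140). In each group replicate 1 had the highest Mcm4, and TAC and sham overlapped. The difference of Mcm4 was 3.39 (SE 0.25, limma adjusted p = 1.80e-05, 13.3-fold) and 3.35 with replicates 2 and 3 alone.

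Mcm7, the subunit with the highest adult level of the 4, had the smallest difference among them. It had 78.8, 67.3 and 62.9 rescaled FPKM in fetal ventricle, 12.5, 12.7 and 13.8 in TAC and 14.9, 14.8 and 12.9 in sham (rn4 chromosome 12, 17607250 to 17615101). The fetal libraries were all higher, and TAC and sham overlapped. The group means were 69.7 ± 8.17 in fetal ventricle, 13.0 ± 0.695 in TAC and 14.2 ± 1.12 in sham (SD, n = 3 each). The fetal minus sham difference was 2.21 (SE 0.14, limma adjusted p = 8.84e-06, 4.90-fold). Its 95% interval, 1.90 to 2.52, lay below that of Mcm6, 3.55 to 4.42. The difference between these 2 genes was not tested.

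Cdc6, the loader that is taken off the origin once the ring is in place, was the least abundant member in all 9 libraries. It had 13.0, 16.7 and 18.7 rescaled FPKM in fetal ventricle, 0.750, 0.544 and 0.738 in TAC and 0.411, 0.0475 and 0.383 in sham (rn4 chromosome 10, 87684493 to 87697865). The 3 groups did not overlap, with TAC between fetal and sham. The adult values rest on few fragments, about 9, 6 and 15 in TAC and 11, 1 and 13 in sham, as the deposited bounds imply. The fetal minus sham difference was 3.74 (SE 0.22, limma adjusted p = 7.77e-06). The ratio of means, 57.4-fold, has these few sham fragments as its base. With a pseudocount of 0.1 the difference of Cdc6 was 5.60, above that of Mcm6 (4.23), and against TAC it was 4.38, beside 4.25 for Mcm6.

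Pcna was the most abundant member in all 9 libraries. It had 275.2, 219.9 and 196.2 rescaled FPKM in fetal ventricle, 47.3, 62.8 and 54.6 in TAC and 45.2, 54.8 and 42.0 in sham (rn4 chromosome 3, 120008715 to 120012673). The fetal libraries were all higher, and TAC and sham overlapped. The group means were 230.5 ± 40.6 in fetal ventricle, 54.9 ± 7.75 in TAC and 47.3 ± 6.62 in sham (SD, n = 3 each). The fetal minus sham difference was 2.25 (SE 0.18, limma adjusted p = 2.58e-05, 4.87-fold), and 2.09 with replicates 2 and 3 alone.

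Some of these reads may belong to copies. RefSeq lists 1 pseudogene of Mcm4, 1 of Mcm7 and 3 of Pcna, and the sources used here do not say how reads were shared among near-identical copies, so the levels of these members are uncertain to that extent. The locus whose profile over the 9 libraries was nearest to that of Pcna was LOC300303 on rn4 chromosome X, 1283 nt long, against 1244 nt for the Pcna transcript. LOC300303 stood at 0.464 to 0.503 of the Pcna level in fetal libraries, 0.464 to 0.519 in TAC and 0.541 to 0.575 in sham. One of the Pcna pseudogenes in RefSeq is also on chromosome X, of another build, and whether it is this locus was not tested. The library kit does not mark the strand, so reads of genes on the opposite strand cannot be told apart from those of the members.

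No member was called between TAC and sham. The differences ran from -0.12 for Mcm7 to 0.40 for Cdc6, 4 of 6 were above 0, and the median was 0.26, against -0.01 over all loci. Only 2 of the 14126 loci were called in this comparison (0.0142%), and 603 had an unadjusted p below 0.05, among which was no member. The intervals bound the size of a difference that these libraries can hide. For Mcm6 the 95% interval ran from -0.45 to 0.42 around -0.01, and for Mcm7 from -0.43 to 0.19 around -0.12. For Pcna it ran from -0.19 to 0.61 around 0.21, and for Mcm4 from -0.25 to 0.88 around 0.32. With 1 library left out the difference of Mcm4 was lowest without TAC replicate 1 (0.13) and highest without sham replicate 1 (0.44). That of Pcna was 0.11 without TAC replicate 2 and 0.13 without sham replicate 3, and 0.32 without sham replicate 2.

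Mcm3 and Cdc6 were the 2 members in which every TAC library lay above every sham library, which held for 4.3% of all loci. Mcm3 averaged 3.84 ± 0.181 in TAC and 2.88 ± 0.802 in sham (SD, n = 3 each). The difference was 0.34 (95% interval -0.10 to 0.78, limma adjusted p = 1). Without sham replicate 3, the lowest library, it was 0.16. Cdc6 averaged 0.677 ± 0.116 in TAC and 0.281 ± 0.203 in sham (SD, n = 3 each). The difference was 0.40 (95% interval -0.11 to 0.91, limma adjusted p = 1). Without sham replicate 2, the library with about 1 fragment, it was 0.26. With a pseudocount of 0.1, which weighs low values more, it was 1.22 (adjusted p = 1). Neither difference passed the test. With replicates 2 and 3 alone the differences of the 5 members other than Cdc6 ran from -0.06 to 0.37, and none was called.

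Fetal ventricle was also compared with TAC, where the same fetal libraries enter again, so the values are given side by side with those above and not as separate evidence. All 6 members were called higher, beside 22.8% of all loci called higher and 22.9% called lower. In each member every fetal library lay above every TAC library, which held for 28.4% of all loci. The differences were 4.0 for Mcm6, 3.34 for Cdc6, 3.08 for Mcm4, 3.07 for Mcm3, 2.33 for Mcm7 and 2.04 for Pcna, with limma adjusted p between 3.32e-06 and 4.40e-05. With replicates 2 and 3 alone they ran from 1.81 for Pcna to 4.0 for Mcm6. As ratios of means they ran from 4.20-fold for Pcna to 23.8-fold for Cdc6.

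**Figure D2:**
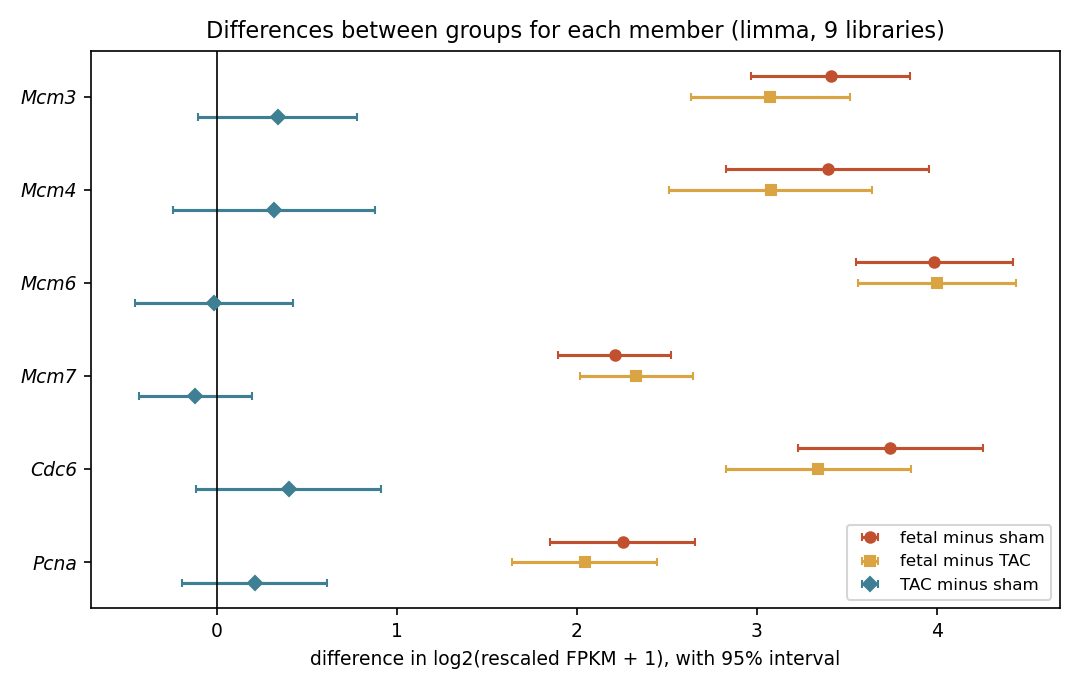
Difference in log2(rescaled FPKM + 1) of each member, with the 95% interval from limma (9 libraries, 3 a group). The fetal minus sham and fetal minus TAC points lie between 2.04 and 4.0, and the TAC minus sham intervals all include 0.

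The helicase ring holds its subunits in equal numbers, and their transcripts were in unequal shares. The sum used here covers Mcm3, Mcm4, Mcm6 and Mcm7 only; Mcm2 is among the genes below and Mcm5 is not analysed here. The sum was 229.5 to 266.8 rescaled FPKM in fetal libraries, 23.5 to 27.6 in TAC and 22.4 to 27.5 in sham. A share does not depend on how a library was scaled. Mcm6 made up 33.6%, 36.2% and 36.4% of the sum in fetal libraries, 16.9%, 13.6% and 20.8% in TAC and 18.3%, 16.2% and 19.0% in sham. Mcm7 made up 29.5%, 29.3% and 27.1% in fetal libraries, 45.4%, 53.9% and 50.6% in TAC and 54.2%, 57.9% and 57.7% in sham. The adult shares of Mcm6 were all below, and those of Mcm7 all above, the fetal ones.

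**Figure D3:**
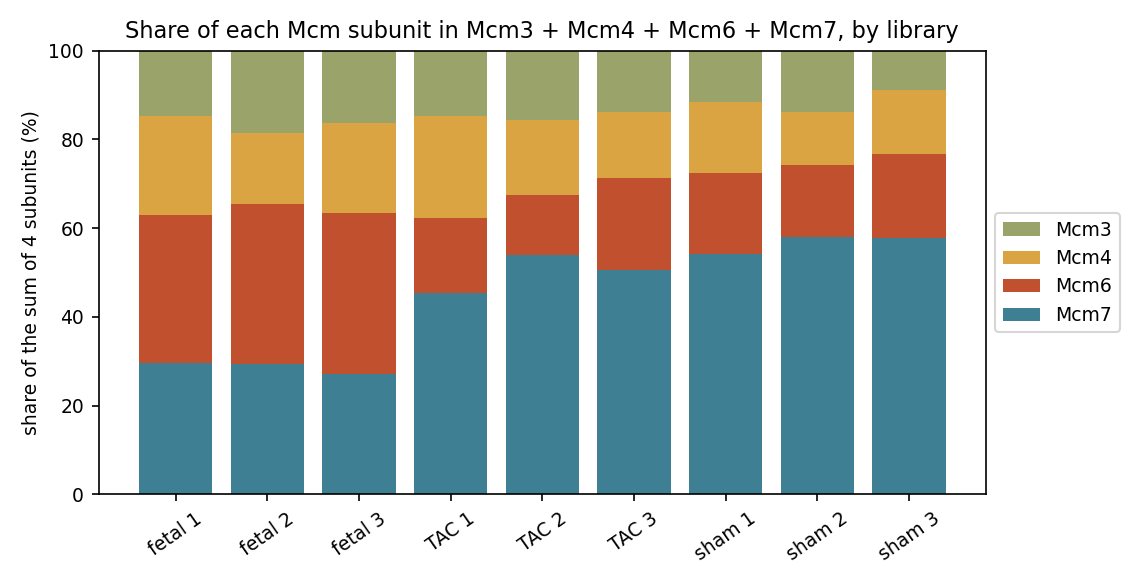
Share of Mcm3, Mcm4, Mcm6 and Mcm7 in their summed rescaled FPKM, in percent, for each of the 9 libraries. Mcm7 takes 27.1% to 29.5% of the fetal bars, 45.4% to 53.9% of the TAC bars and 54.2% to 57.9% of the sham bars.

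The ratio of Mcm6 to Mcm7 carried the same shift. It was 1.14 to 1.34 in fetal libraries, 0.253 to 0.410 in TAC and 0.280 to 0.338 in sham, so the order of the pair turned between fetal and adult libraries, with no overlap. Pcna kept a closer ratio to Mcm7, at 3.12 to 3.50 in fetal libraries, 3.78 to 4.95 in TAC and 3.03 to 3.69 in sham. TAC lay above the other groups in this ratio, which was not tested. The shares of Mcm3 were 14.6% to 18.6% in fetal libraries, 13.9% to 15.7% in TAC and 8.85% to 13.7% in sham. Those of Mcm4 overlapped in all 3 groups, at 15.9% to 22.3% in fetal libraries, 14.8% to 23.0% in TAC and 12.1% to 16.0% in sham.

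By level, the order in all 3 fetal libraries was Pcna, then Mcm6, then Mcm7, with Cdc6 last. Mcm4 and Mcm3 came between, with overlapping ranges, and they changed places in fetal replicate 2. The fetal ranges of the other neighbours in this order did not overlap. In all 6 adult libraries Pcna came first, Mcm7 next and Cdc6 last. Mcm3, Mcm4 and Mcm6 had overlapping adult ranges. Mcm4 lay above Mcm3 in all 3 TAC libraries, and Mcm6 lay above both in all 3 sham libraries.

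The members did not have the same profile, even after each one's mean level was removed. The root mean square gap between 2 profiles over the 9 libraries, on the log2 scale, was smallest for Mcm7 and Pcna (0.191) and largest for Mcm6 and Pcna (0.917). Mcm3 and Mcm4 were 0.283 apart. Among 8764 other loci, the nearest to the mean profile of the 6 members were Camk1g, a calcium and calmodulin dependent kinase (0.107), Ercc6l, a DNA translocase of mitosis (0.118), RGD1565672 (Mtbp in RefSeq, the Mdm2 binding protein, 0.142), RGD1565947 (Ntn4 in RefSeq, netrin 4, 0.154) and Tubb5, a beta tubulin (0.158). Camk1g was listed at 0 in 5 of 6 adult libraries, with 8.22, 7.33 and 7.33 rescaled FPKM in fetal ventricle. The nearest locus to each single member was KIFC1_RAT for Mcm3 (0.133), Hells, a chromatin remodeller, for Mcm4 (0.163) and Igf2bp1, an RNA-binding protein of fetal tissue, for Mcm6 (0.187). It was RGD1566180 (Wdr86 in RefSeq) for Mcm7 (0.154) and Igf2bp2, a relative of Igf2bp1, for Cdc6 (0.218). Camk1g, Ercc6l, RGD1565672, RGD1565947, Igf2bp1 and RGD1566180 reached a level of 1 in no adult library. They entered the test only through the fetal group. With a pseudocount of 1, a near profile does not mean a like fold change. Igf2bp1 was listed at 0 in all 6 adult libraries, where Mcm6 had 3.21 to 5.66.

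How a member is read from the files matters most for Mcm3, Cdc6 and Mcm7, because each library was assembled separately. In the fetal libraries 85.9%, 100% and 100% of the Mcm3 value, and 100% of the Cdc6 value in all 3, lay in transcripts that the assembler built and not in the annotated one. In the adult libraries that share was 0% for both genes. The full-length assembled Mcm3 transcripts reach below the annotated start of the span at 19537321, to 19537081, 19536982 and 19536954 in fetal replicates 1 to 3. The longest assembled Cdc6 transcripts reach to 87684184, 87684169 and 87684158, below the annotated 87684493. They stop short of the annotated end at 87697865 and are shorter in all (2544, 2595 and 2573 nt, against 2672 nt). For Mcm7 assembled transcripts held 90.0% and 24.9% in fetal replicates 1 and 2, 79.8% and 100% in sham replicates 1 and 2, and 0% in the other 5 libraries. For Mcm4 assembled transcripts held 46.2% and 37.8% in fetal replicates 2 and 3 and 28.0% in sham replicate 3. For Pcna they held 18.4% in fetal replicate 1 and 19.7% in TAC replicate 3. Mcm6 lay in its annotated transcript or an extension of it in all 9 libraries.

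**Figure D4:**
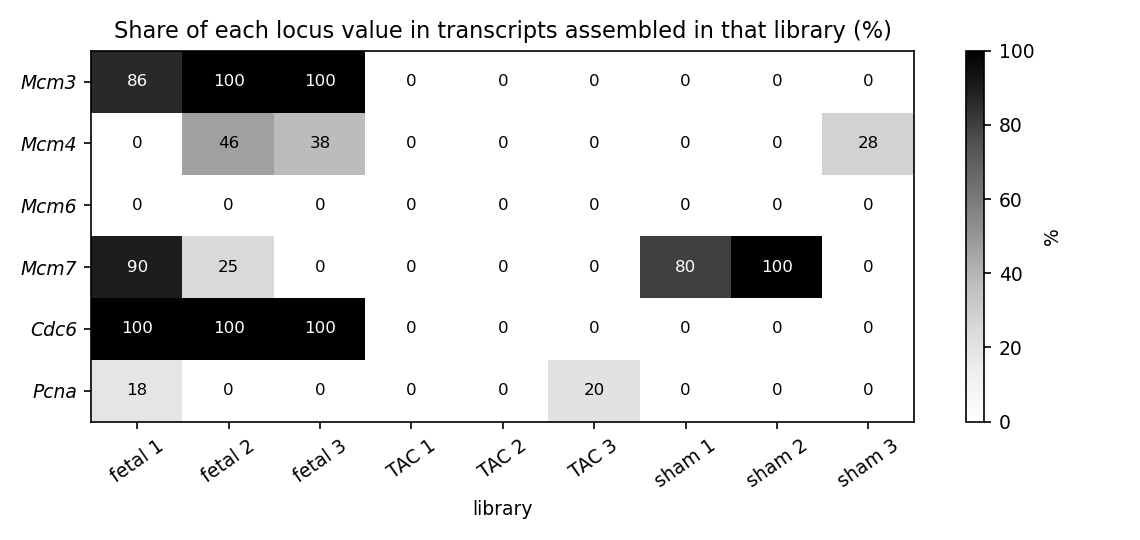
Share of each member's value, in percent, held by transcripts assembled in that library and not by the annotated transcript or its extension. Dark cells mark Mcm3 and Cdc6 in the fetal libraries and Mcm7 in fetal replicate 1 and sham replicates 1 and 2.

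With annotated transcripts alone, therefore, Mcm3 turned to a fetal minus sham difference of -1.20 (limma adjusted p = 0.390), Cdc6 was listed at 0 in all 3 fetal libraries and could not be tested, and Mcm7 was no longer called (3.34, adjusted p = 0.0854). Mcm4, Mcm6 and Pcna were called higher in that reading as well. The values above sum all transcripts of a locus.

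The rest of the pathway was read from lists of named genes. Their counts against sham stand beside 22.4% of all loci called higher. With annotated transcripts alone they stand beside 930 of 13111 loci called higher and 1125 lower. The loading list has 19 symbols, with older and newer symbols of a gene counted separately, and 8 of them could be tested. Of these 8, 6 were higher in fetal than in sham, none lower and 2 not called, with a median of 1.46. Annotated transcripts alone left 1 of 8 called higher. Gmnn (geminin), which blocks Cdt1 once S phase has begun, had 55.4, 39.5 and 46.7 rescaled FPKM in fetal ventricle, 1.37, 1.96 and 1.82 in TAC and 3.87, 3.25 and 1.38 in sham (difference 3.70, limma adjusted p = 2.50e-05). Cdt1, the partner of Cdc6, had 17.0, 23.4 and 22.8 in fetal ventricle, 4.16, 3.09 and 3.42 in TAC and 3.21, 2.24 and 3.05 in sham (2.52, limma adjusted p = 3.29e-05). Mcm2, another subunit of the ring, had 44.0, 49.5 and 33.0 in fetal ventricle, 9.64, 5.49 and 8.26 in TAC and 7.54, 5.59 and 6.80 in sham (2.49, limma adjusted p = 7.64e-05, but -2.15 with annotated transcripts alone). All 3 separated fetal from both adult groups with no overlap, but they were named for the largest differences of their list. Every fetal library lay above every sham library in 29.2% of all loci, and above every TAC library in 28.4%. The 2 not called were subunits of the origin recognition complex, Orc5l (0.65, adjusted p = 0.0523) and Orc6l (1.21, adjusted p = 0.369), and Orc6l was listed at 0 in fetal replicate 2 while the other fetal libraries had 20.2 and 18.0.

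Of 30 symbols for origin firing and the fork, an older symbol of Cdc45 among them, 20 could be tested. Of these 20, 18 were higher, 1 lower and 1 not called, with a median of 2.59. Of the 18, Ccne2, Clspn and Recql4 reached a level of 1 in no adult library and so entered the test only through the fetal group. With annotated transcripts alone 12 of 19 were called higher and 2 lower. Ccna2 (cyclin A2) differed by 5.19 (limma adjusted p = 5.86e-05). Ccne2 (cyclin E2) had 28.7, 19.3 and 30.0 rescaled FPKM in fetal ventricle and was listed at 0 in all 6 adult libraries. Dbf4, the activator of the kinase Cdc7 that fires licensed origins, had 25.5, 14.7 and 27.3 in fetal ventricle, 2.47, 0.122 and 0.431 in TAC and 0.568, 0.348 and 0.777 in sham (3.87, limma adjusted p = 0.000174). The gene called lower was Pole4, a small subunit of DNA polymerase epsilon (-0.96, adjusted p = 0.0462), and that call was lost in 10 of 20 alternatives, equal library totals and equal upper quartiles among them.

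Of the loaders and partners of Pcna 14 of 19 could be tested, and 12 were higher, 1 lower and 1 not called, with a median of 1.61. Annotated transcripts alone left 7 of 14 called higher and 1 lower. The largest differences were those of Chaf1b, a chromatin assembly subunit that follows the clamp (2.92, limma adjusted p = 6.37e-05), Fen1, the flap nuclease (2.38, adjusted p = 2.75e-05) and Ung, the uracil glycosylase (2.14, adjusted p = 2.74e-05). Chaf1b reached a level of 1 in no adult library, so it too entered the test only through the fetal group. Pold4, a small subunit of DNA polymerase delta, was lower, with 7.29, 11.7 and 7.67 rescaled FPKM in fetal ventricle, 13.3, 24.2 and 25.4 in TAC and 21.2, 30.6 and 22.9 in sham (-1.40, limma adjusted p = 0.00428). Its fetal libraries lay below all adult ones, and the share of all loci for which that holds was not computed. Rfc4, a subunit of the clamp loader, was not called (1.05, adjusted p = 0.489) and was listed at 0 in fetal replicate 2, with 30.1 and 27.9 in the other fetal libraries.

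Of the genes that supply nucleotides 6 of 10 could be tested, and 4 were higher, 1 lower and 1 not called, with a median of 2.10. With annotated transcripts alone 1 of 5 was called higher. Rrm2, the S phase subunit of ribonucleotide reductase, had 57.1, 3.10 and 13.0 rescaled FPKM in fetal ventricle, 4.98, 0.0181 and 0.299 in TAC and 1.16, 0 and 0.675 in sham (3.28, limma adjusted p = 0.0245), and fetal replicate 2 overlapped with TAC. The call of Rrm2 was lost in 5 of 18 alternatives, among them without fetal replicate 1 or 3 and without sham replicate 2 or 3. Tyms, thymidylate synthase, differed by 2.14 (limma adjusted p = 0.000206). Rrm2b, the form of the reductase subunit that p53 induces, was lower (-0.86, adjusted p = 0.0260), a call lost in 8 of 19 alternatives, among them equal library totals and the omission of any 1 fetal or sham library. With replicates 2 and 3 alone 2 of 5 tested genes of this list were called higher and none lower.

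Of the regulators 10 of 31 could be tested, and 6 were higher, 1 lower and 3 not called, with a median of 1.68. Of 9 tested with annotated transcripts alone 5 were called higher and 1 lower. Rbl1 (p107), a pocket protein that binds E2F, differed by 3.49 (limma adjusted p = 6.32e-05), Skp2, a ubiquitin ligase subunit of S phase, by 3.30 (adjusted p = 1.79e-05) and Fbxo5, an inhibitor of the anaphase promoting complex, by 3.27 (adjusted p = 6.76e-05). Skp2 reached a level of 1 in no adult library and was tested only through the fetal group. Cdkn1a (p21), an inhibitor of cyclin dependent kinases that also binds Pcna, was lower, with 6.39, 12.7 and 16.1 rescaled FPKM in fetal ventricle, 54.8, 45.5 and 24.3 in TAC and 74.0, 32.1 and 43.0 in sham (-1.99, limma adjusted p = 0.00579). Every adult library lay above every fetal one for Cdkn1a, again with no share over all loci computed. No gene of the 5 lists was called between TAC and sham, where the medians of the lists ran from -0.14 to 0.21.

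**Figure D5:**
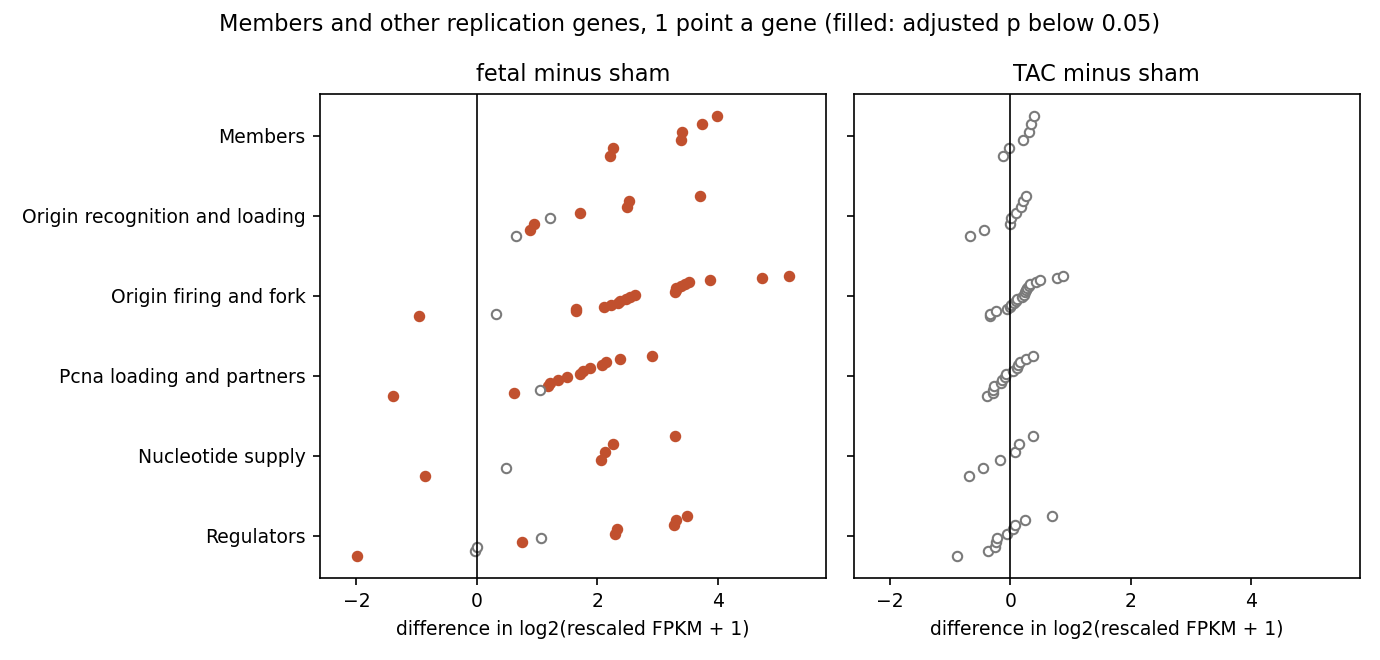
Difference in log2(rescaled FPKM + 1) for the members and the tested genes of each list, 1 point a gene, filled where called; fetal minus sham at the left, TAC minus sham at the right. Most points at the left are filled and above 0, and none at the right is filled.

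Against TAC, fetal ventricle had 6 of 8 loading genes, 18 of 20 firing and fork genes, 11 of 14 Pcna partners, 5 of 6 nucleotide genes and 7 of 10 regulators called higher. Of all loci 22.8% were called higher in this comparison. With annotated transcripts alone the list counts were 2 of 8, 12 of 19 and 7 of 14, each with 1 lower, then 2 of 5 and 5 of 9. Called lower in that comparison were Pole4 (-1.06, lost in 8 of 20 alternatives), Pold4 (-1.13) and Cdkn1a (-1.75, lost with annotated transcripts alone). E2F words were in 8 of 11 RefSeq promoters of the loading list, 11 of 24 of firing and fork, 7 of 19 of the Pcna partners, 2 of 7 of nucleotide supply and 4 of 21 of the regulators, against 2.14% of all promoters.

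Markers of several other cell types differed between fetal and adult libraries, as the members did. Of the erythroid markers 6 of 15 could be tested and 2 were higher in fetal than in sham (median 1.08), near the share of all loci called higher (22.4%). Against TAC 4 of 6 were higher (median 1.57), beside 22.8% of all loci. The summed levels, almost all Hba-a2, were 17260 to 27550 in fetal libraries, 5023 to 10210 in TAC and 5085 to 12700 in sham. The counts that follow are against sham, beside 22.4% of all loci called higher and 23.1% called lower. Both testable epicardial markers, Tbx18 and Aldh1a2, were higher, with sums of 29.9 to 41.5 in fetal libraries, 5.16 to 6.37 in TAC and 5.61 to 6.71 in sham. All 6 testable macrophage markers were lower, with sums of 58.7 to 69.1 in fetal libraries, 297.2 to 492.3 in TAC and 277.8 to 513.7 in sham. Lymphocyte markers had 2 of 4 lower, with sums of 4.10 to 5.05 in fetal libraries, 25.5 to 36.3 in TAC and 27.0 to 35.6 in sham, and Cd3e was listed at 0 in all 3 fetal libraries.

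The counts here too are against sham, beside 23.1% of all loci called lower and 22.4% called higher. Fibroblast markers had 4 of 6 lower and 1 higher, with sums of 399.1 to 605.2 in fetal libraries, 1471 to 1557 in TAC and 1027 to 1482 in sham. The higher one, Postn, was the largest part of each fetal sum (362.6, 212.6 and 231.1) and averaged 17.1 in TAC and 13.2 in sham. Endothelial markers had 3 of 4 lower, with sums of 95.2 to 172.7 in fetal libraries, 196.0 to 299.2 in TAC and 163.9 to 287.0 in sham. Smooth muscle markers had 1 of 2 higher, with sums of 154.4 to 212.3 in fetal libraries, 56.6 to 120.6 in TAC and 60.9 to 198.7 in sham. Of the 3 cardiomyocyte markers Mb and Des were lower. The sum was 15510 to 139200 in fetal libraries, 43920 to 50740 in TAC and 43980 to 48360 in sham. It was mostly Actc1 in fetal libraries and mostly Actc1 and Mb in adult ones. Mb averaged 1127 in fetal libraries, 20450 in TAC and 21420 in sham. No marker of these lists was called between TAC and sham. The part that the cell make-up of the ventricle has in the levels of the 6 members was not tested.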

How the data were processed

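RNA was measured in 9 rat heart libraries (Illumina TruSeq). Per the submitters' processing notes, the authors aligned reads to rn4 with TopHat 1.3.1 and assembled and quantified them with Cufflinks 1.0.3 and Cuffdiff, and deposited FPKM per gene and per isoform, with confidence bounds. Read counts were not used here.

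Libraries were joined through 39492 annotated transcripts into 29325 loci, and the FPKM of all transcripts of a locus were summed. They were rescaled by the median of ratios, and loci of at least 200 nt with at least 1 rescaled FPKM in at least 3 libraries were tested on log2(value + 1) with limma 3.58.1 (R 4.3.3). Depth was estimated from the bounds. Libraries with the same replicate number, taken from the titles, deviated together (correlations of 0.153 to 0.510), but replicates 2 and 3 of different groups did too (0.130 to 0.275), so mainly replicate 1 is set apart. A fit with the number as a block is an alternative. The members and lists were chosen with earlier results of these data known. Named from each list are up to 3 called genes of each direction with the largest fetal minus sham differences, and 1 gene that this rule names is not reported here. The genes not called were chosen after their values were seen. Promoters are from RefSeq, and 4 of 6 members matched. The limma step was tested on simulated libraries, in which replicate 1 did not differ from the others. That simulation did not cover the joining of libraries or the rescaling.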

Additional observations from a re-analysis of the deposited data

How the results depend on the processing

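Over 20 alternative settings, 337 of 345 values of the members kept their direction and their side of the threshold. Many of these could not change the difference, so the count is not 345 separate checks. The deposited gene row could give no other values than the main fit, so it is no check. It replaced a locus sum only where a library names the gene, and there the transcripts sum to the row. No fetal library names Mcm3, Mcm4, Mcm7 or Cdc6. The filters, the estimate of spread, the block, the fit of only the libraries compared and the omission of a library of the group not compared left each tested difference as it was. Reference transcripts only gave 2055 loci called for fetal against sham, 2138 for fetal against TAC and 41 for TAC against sham, and 3 of 5 tested members called higher in either fetal comparison. Mcm3 turned to -1.20 and, against TAC, to -1.55 there, Mcm7 lost its calls (3.34, and 1.33 against TAC) and turned to 2.01 in TAC minus sham. These readings leave out the transcripts that hold most of the fetal Mcm3 and Cdc6 values. Replicates 2 and 3 alone gave 10 loci called for TAC against sham. The TAC minus sham difference of Mcm6, close to 0, turned to 0.024 with replicates 2 and 3 alone, and ran from -0.16 to 0.17 with 1 library left out (0.17 without TAC replicate 2, 0.056 without sham replicate 1). The cause was not tested.

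Leaving out 1 library at a time gave 4979 to 6634 loci called for fetal against sham, 4963 to 6361 for fetal against TAC and 2 to 5 for TAC against sham, where the count was 5 without fetal replicate 1 and 4 without TAC replicate 2 or sham replicate 2. Without any 1 fetal library, and with replicates 2 and 3 alone, Cdc6 fell below the filter and 5 of 5 members were called higher. With the replicate block 6678, 2 and 6738 loci were called for fetal against sham, TAC against sham and fetal against TAC, and no call of a member changed. The median of all loci was 0.19 for fetal against sham and 0.24 against TAC with equal library totals, and 0.13 and 0.12 with equal upper quartiles. Equal library totals called 3569 loci higher and 2254 lower against TAC, beside 3217 and 3229, and the 6 members remained called higher. Among lists chosen for these settings after the data were seen, nucleotide supply moved to 2 genes called higher against sham and 3 against TAC with replicates 2 and 3 alone. With reference transcripts only fewer genes were called higher in each of the 5 lists, and the loading list moved most (1 of 8 against sham). Among the 18 named genes of the lists, 13 kept their fetal minus sham call in every alternative in which they could be tested. For Ccne2, Chaf1b and Skp2 these were 16 of the 20 alternatives, and for Dbf4 19. The 18 were named for the largest called differences in these same libraries, so the count is no separate check. With reference transcripts only Mcm2 turned to -2.15, and the calls of Gmnn and Rrm2 were lost. Depth limits Cdc6 in adult libraries most.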
